A study of Homo sapiens with 12 samples.

Results

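The 60 genes described here encode the proteins that mark, license and fire DNA replication origins and those that build and protect the moving fork. The rule lists them by symbol and uses no measured value, and they were matched to the 60648 genes of a count table through their Ensembl identifiers. Each of the 60 matched 1 row, and all 60 passed the filter on low counts that left 18289 genes for testing. RNA was sequenced from poly-A selected libraries of HCT116, an established human colon carcinoma cell line, grown in DMEM with serum. There were 4 groups of 3 libraries: MTHFD2 wild type and MTHFD2 knock-out, each harvested at the start (for the knock-out, directly after it was made; the initial harvest) and again 2 months of culture later (the final harvest). The knock-out was made with CRISPR-Cas9 and is 1 isolated clone, so clone and genotype cannot be told apart; how the wild-type cells were derived is not given in the sources used here. The series text calls the replicates biological but does not say what separates them, so the p-values measure the spread between these libraries only. In bulk RNA, fewer cells in S phase and less RNA per cell cannot be told apart.

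Replication begins when the origin recognition complex (ORC1 to ORC6), with CDC6 and CDT1, loads the MCM2-7 ring onto DNA in G1. In S phase the DBF4-dependent kinase CDC7 and a set of firing factors turn the loaded ring, with CDC45 and the GINS complex, into the active helicase. Polymerases alpha, delta and epsilon then copy the strands with the PCNA clamp and its loaders, RPA coats single-stranded DNA, and FEN1 and LIG1 finish the Okazaki fragments. Many of these genes are textbook targets of E2F transcription factors and peak together around the G1/S transition. MTHFD2 is a folate-cycle dehydrogenase that feeds one-carbon units into nucleotide synthesis, and the series title ties a nuclear pool of it to chromosome stability and mitosis.

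Library totals ran from 38597809 to 40017561 counts, and between 6.46% and 13.8% of counts came from the mitochondrial genome. MTHFD2 was lower in all 6 knock-out libraries (122.8 to 155.3 CPM, counts scaled to a common library size with TMM factors) than in all 6 wild-type libraries (318.6 to 456.6 CPM), with p = 0.005 in an exact two-sided permutation test within harvests, the smallest that its 400 relabellings allow. Of 7 epithelial markers, 6 passed the filter and VIL1 did not, and their summed level was 2533 to 3031 CPM in the knock-out and 3064 to 3817 CPM in the wild type. Of 5 fibroblast markers, DCN was at 0 in all 12 libraries and COL1A1 carried nearly all of a summed level of 37.5 to 59.3 CPM in the knock-out and 56.8 to 78.8 CPM in the wild type. Of 6 blood and endothelial markers, CD3E was at 0 in all libraries and the summed level was 1.33 to 2.19 CPM. The part of these marker differences in the results below was not tested.

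The number of replication genes that differed between genotypes depended on single libraries. At the initial harvest 5 of the 60 genes (8.33%) passed the test (edgeR quasi-likelihood, Benjamini-Hochberg adjusted p under 0.05 over all genes), 3 higher and 2 lower in the knock-out, where 19.9% of all tested genes passed. Without initial wild-type replicate 2 the count was 15 (13 higher and 2 lower), where 24.6% of all genes passed. It was 5 (1 higher and 4 lower, 16.1% of all genes) without initial wild-type replicate 1 and 2 (both lower, 12.9% of all genes) without initial knock-out replicate 2, so neither the number nor the balance of directions held. With the other libraries left out in turn it was 2 to 7. At the final harvest 6 of 60 (10.0%) passed, all higher, where 18.5% of all genes passed; with 1 library left out 3 to 9 passed, at most 1 of them lower. ORC5, RECQL4 and MCM8 were higher and MCM9 and POLD4 lower at the initial harvest; ORC3, MCM8, CDC7, TICRR, TOPBP1 and RECQL4 were higher at the final harvest. Over both harvests, which uses the same libraries again, 12 of 60 (20%) passed, 10 higher and 2 lower, where 30.1% of all genes passed. MCM8 and RECQL4 were the genes called at both harvests. No member passed a test against a 1.2-fold change at either harvest, where 9.28% and 9.17% of all genes did; 2 members at each harvest had an unadjusted p under 0.05 in that test. Against no change, 14 and 12 members had an unadjusted p under 0.05 in edgeR (31.9% and 30.2% of all genes), and DESeq2 called 7 at each harvest (21.0% and 19.3% of all genes).

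Member log2 fold changes, knock-out over wild type, lay between -0.49 and 0.36 at the initial harvest and between -0.34 and 0.41 at the final harvest. Their medians were 0.05 and 0.05, beside 0.00 and -0.00 for all tested genes. The initial median was 0.12 without initial wild-type replicate 2, 0.02 without replicate 1 and 0.03 without replicate 3 of that group, and 0.07 without initial knock-out replicate 1. The final median ran from 0.02 to 0.08 with 1 library left out: it was lowest without final knock-out replicate 1 and highest without final wild-type replicate 1. The 95% interval stayed within a 1.5-fold change in either direction for 56 of the 60 genes at the initial and for 58 at the final harvest, with a median half-width of 0.20 on the log2 scale. The exceptions were MCM9, RECQL4, POLD4 and RNASEH2A at the initial and POLD4 and MCM8 at the final harvest. The 3 knock-out libraries lay wholly above or below the 3 wild-type libraries in 12 members at the initial harvest and 17 at the final harvest, against 35.5% and 33.1% of all tested genes.

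**Figure D1:**
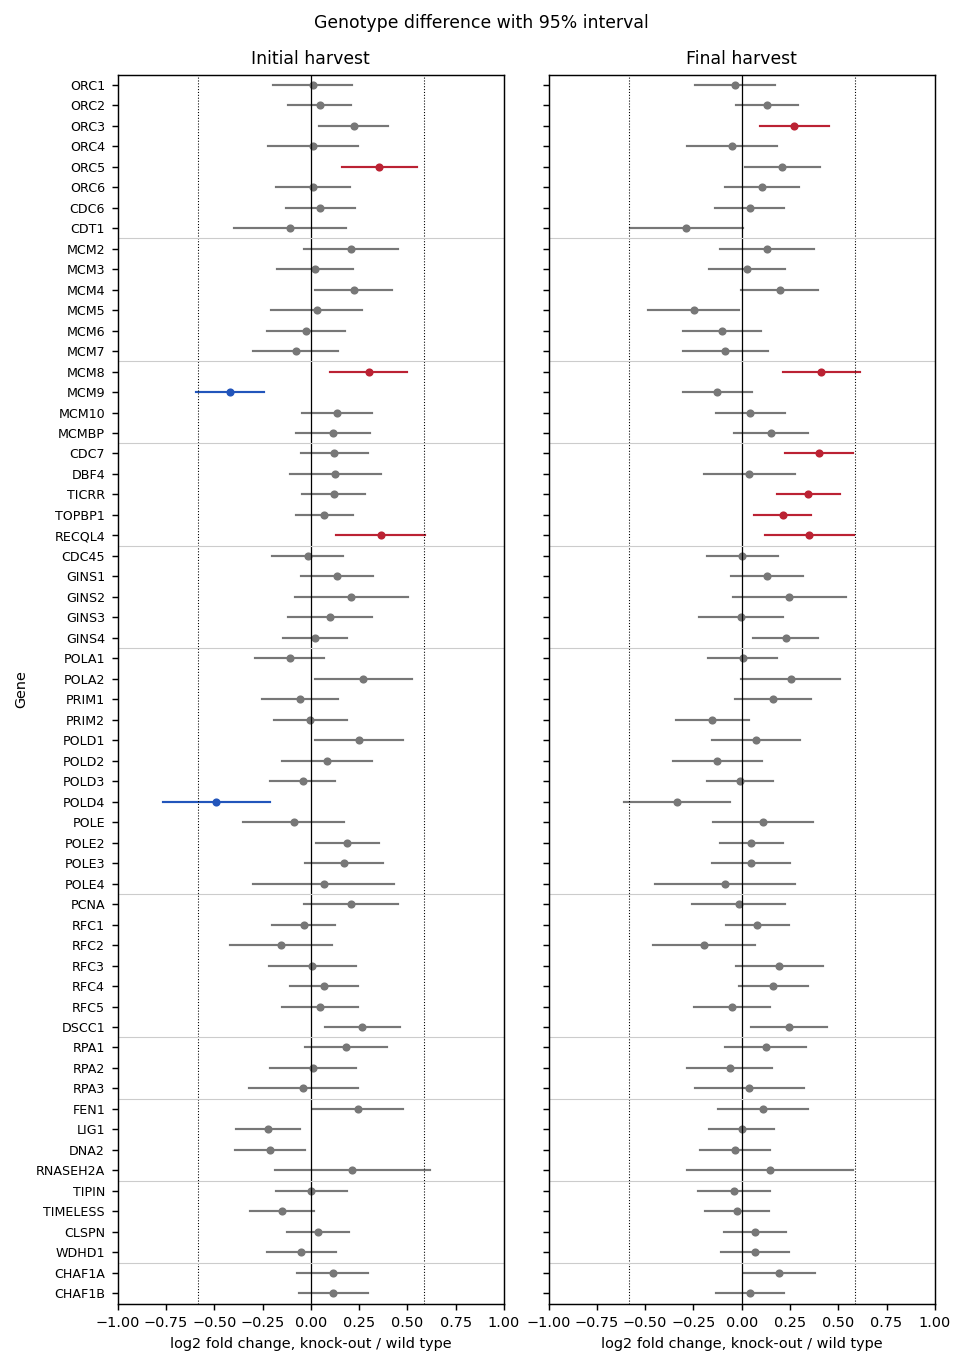
Log2 fold change of knock-out over wild type (x axis) for each of the 60 genes (y axis, ordered by role, grey lines between roles) at the initial (left) and final (right) harvest; points are edgeR estimates, bars 95% intervals, red and blue mark genes called higher and lower at an adjusted p under 0.05, and dotted lines mark a 1.5-fold change. Most intervals include 0 and stay inside the dotted lines; MCM8 and RECQL4 are red in both panels.

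Of the 5 origin firing genes, 4 were higher in the knock-out at the final harvest. CDC7 (the kinase that phosphorylates the MCM ring), TICRR (the human counterpart of yeast Sld3, known as Treslin), TOPBP1 (a scaffold that bridges TICRR to the helicase) and RECQL4 (a RecQ-type helicase needed for initiation) were called, and DBF4, the activator of CDC7, did not pass. The median log2 fold change of the 5 was 0.34, and 8.38% of all tested genes were called higher. The group was set by known role, but with earlier results of these data known, and no test compared it with other groups. At the initial harvest the same 5 genes had log2 fold changes of 0.07 to 0.36 with a median of 0.12, and RECQL4 alone was called.

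CDC7 (ENSG00000097046.13, GRCh38 chromosome 1, 91500851 to 91525764, plus strand) had 57.8, 50.1 and 53.2 CPM in the initial wild type, 38.7, 41.8 and 44.5 in the final wild type, 58.0, 58.7 and 58.5 in the initial knock-out, and 58.9, 54.6 and 51.5 in the final knock-out. The final wild-type libraries were the 3 lowest of the 12, and no other group overlapped them. The final difference between genotypes was 0.40 on the log2 scale (SE 0.0828, adjusted p 0.00238 in edgeR), a 1.32-fold higher level, and the call was kept in all 12 fits that left out 1 library.

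TICRR (ENSG00000140534.14, chromosome 15, 89575469 to 89631056, plus strand) showed the same arrangement. Its levels were 73.8, 79.5 and 69.0 CPM in the initial wild type, 64.2, 57.8 and 59.5 in the final wild type, 83.5, 80.8 and 77.0 in the initial knock-out, and 74.5, 79.0 and 76.8 in the final knock-out. Again the final wild type was lowest and did not overlap any other group. The final genotype difference was 0.34 (SE 0.077, adjusted p 0.00434 in edgeR) and was also kept in all 12 fits; KIF7, on the opposite strand, shares 7% of the exon bases of TICRR.

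RECQL4 (ENSG00000160957.14, chromosome 8, 144511288 to 144517845, minus strand) was higher in the knock-out at both harvests. Its levels were 270.5, 312.8 and 262.0 CPM in the initial wild type and 389.8, 354.1 and 342.5 in the initial knock-out, a log2 difference of 0.36 (SE 0.108, adjusted p 0.0269 in edgeR). At the final harvest they were 289.0, 236.6 and 218.8 CPM in the wild type and 289.2, 337.1 and 321.6 in the knock-out, a difference of 0.35 (SE 0.108, adjusted p 0.0335). The groups did not overlap at either harvest, though the lowest final knock-out library and the highest final wild-type library were nearly level. The initial call was lost without initial wild-type replicate 1 or 3 or initial knock-out replicate 1 or 2, with an adjusted p of up to 0.126. The final call was lost without final wild-type replicate 2 or 3, initial knock-out replicate 2, or final knock-out replicate 2 or 3, with an adjusted p of up to 0.188.

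TOPBP1 (ENSG00000163781.14, chromosome 3, 133598175 to 133662380, minus strand) had 107.3, 110.0 and 113.0 CPM in the final wild type and 133.5, 124.1 and 125.0 in the final knock-out, with no overlap. Its final difference of 0.21 (SE 0.0693, adjusted p 0.0425 in edgeR) was kept without initial wild-type replicate 1 or 2 and lost without each of the other 10 libraries, with an adjusted p of up to 0.178. DBF4 had group means of 33.5 ± 0.518 CPM (SD, n = 3) in the initial wild type, 32.9 ± 4.64 in the final wild type, 36.6 ± 3.75 in the initial and 33.8 ± 3.86 in the final knock-out. Its genotype differences of 0.13 and 0.04 did not pass.

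**Figure D2:**
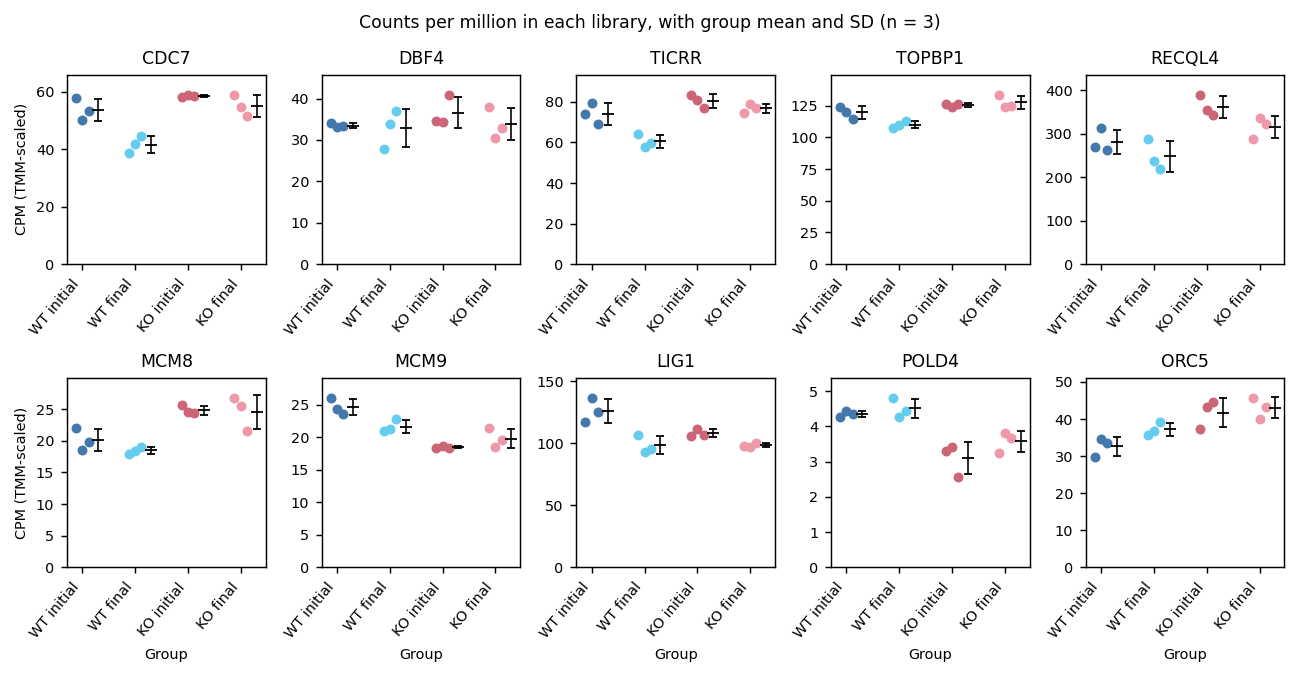
TMM-scaled CPM (y axes, each from 0) of the 5 origin firing genes (top row) and of MCM8, MCM9, LIG1, POLD4 and ORC5 (bottom row) in the 4 groups (x axes); coloured points are single libraries and black marks with bars are the group mean and SD (n = 3). CDC7 and TICRR are lowest in the 3 final wild-type libraries. MCM8 is higher in the knock-out at both harvests, while MCM9 is lower there at the initial harvest and overlaps between genotypes at the final one.

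MCM8 and MCM9 form a hexameric helicase of their own that acts in homologous recombination and fork repair, apart from the replicative MCM2-7 ring. MCM8 (ENSG00000125885.13, chromosome 20, 5950652 to 5998977, plus strand) had 22.1, 18.6 and 19.9 CPM in the initial wild type and 25.6, 24.5 and 24.3 in the initial knock-out, and 18.0, 18.4 and 19.0 CPM in the final wild type and 26.7, 25.4 and 21.6 in the final knock-out. All 6 wild-type libraries reached at most 22.1 CPM, just above the lowest knock-out library, and the other 5 knock-out libraries lay above them. The log2 difference was 0.30 (SE 0.0944, adjusted p 0.0343 in edgeR) initially and 0.41 (SE 0.0949, adjusted p 0.00533) finally. The final call was kept in all 12 fits with 1 library left out; the initial call was lost without initial wild-type replicate 2 or 3 or any of the 3 initial knock-out replicates, with an adjusted p of up to 0.12. A gene without a symbol shares 33.3% of the exon bases of MCM8 on the same strand, so reads there may have been counted to either gene or to none.

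MCM9 (ENSG00000111877.18, chromosome 6, 118813442 to 118935162, minus strand) went the other way. It had 26.0, 24.3 and 23.6 CPM in the initial wild type and 18.4, 18.6 and 18.3 in the initial knock-out, with no overlap and a log2 difference of -0.42 (SE 0.0836, adjusted p 0.00187 in edgeR), kept in all 12 fits. At the final harvest it had 20.9, 21.2 and 22.7 CPM in the wild type and 21.4, 18.5 and 19.5 in the knock-out, which overlap, and the difference of -0.13 did not pass (adjusted p 0.341). The change of the MCM9 difference between harvests, 0.29, did not pass either (interaction, adjusted p 0.316).

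The ratio of MCM8 to MCM9 CPM, chosen after the values were seen, separated the genotypes without overlap. It was 0.848, 0.764 and 0.841 in the initial and 0.860, 0.870 and 0.835 in the final wild type, and 1.39, 1.32 and 1.33 in the initial and 1.251, 1.375 and 1.106 in the final knock-out. The mean log2 difference over both harvests was 0.63, with p = 0.005 in an exact two-sided permutation test within harvests, the smallest of 400 relabellings. Since the ratio was picked from these libraries, this p supports nothing by itself. Of the other genes of this role, MCM10, which helps start the helicase, and MCMBP, an MCM chaperone, had genotype differences of 0.05 to 0.15 that did not pass at either harvest.

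Origin recognition and loading had 8 genes, of which 1 was called at each harvest. ORC5 (ENSG00000164815.11, chromosome 7, 104126341 to 104208047, minus strand), an ATP-binding subunit of the origin recognition complex, had 29.7, 34.7 and 33.5 CPM in the initial wild type and 37.2, 43.3 and 44.7 in the initial knock-out, without overlap. Its log2 difference was 0.35 (SE 0.0921, adjusted p 0.0118 in edgeR), lost without initial wild-type replicate 1 or initial knock-out replicate 2 or 3 (adjusted p up to 0.0692). At the final harvest it had 35.7, 36.7 and 39.1 CPM in the wild type and 45.7, 40.0 and 43.3 in the knock-out, also without overlap, and its difference of 0.21 did not pass (adjusted p 0.133).

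ORC3 (ENSG00000135336.16, chromosome 6, 87590067 to 87667453, plus strand), another subunit of the complex, had 52.8, 58.6 and 54.2 CPM in the initial and 51.4, 47.4 and 53.4 in the final wild type, and 61.5, 63.4 and 68.3 in the initial and 66.3, 55.9 and 61.7 in the final knock-out. The groups did not overlap at either harvest, but only the final difference of 0.27 passed (adjusted p 0.033 in edgeR), against 0.22 with an adjusted p of 0.0766 at the initial harvest. The final call was lost in 8 of the 12 fits with 1 library left out: without initial wild-type replicate 3, any final wild-type replicate, initial knock-out replicate 1 or 2, or final knock-out replicate 1 or 3, with an adjusted p of up to 0.178. The other 6 genes had differences between -0.29 (CDT1, final) and 0.13 (ORC2, final), none of which passed.

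CDT1, the loading factor that is degraded in S phase, is inhibited by geminin, the product of GMNN, which is not among the 60 genes. GMNN (ENSG00000112312.10, chromosome 6, 24774931 to 24786099, plus strand) fell more than any of the 60: from 41.4, 56.3 and 48.3 CPM to 26.1, 25.6 and 27.8 CPM at the initial harvest, a log2 difference of -0.88 (adjusted p 1.84e-05 in edgeR), and from 44.1, 48.6 and 50.6 to 24.2, 22.6 and 26.7 CPM at the final harvest, a difference of -0.96 (adjusted p 6.55e-06). CDT1 itself did not pass at either harvest, with differences of -0.11 and -0.29 and adjusted p of 0.644 and 0.176. GMNN lies in the first 27000000 bases of chromosome 6, where 135 and 141 of the 143 tested genes were below 0 at the respective harvests, with medians of -1.08 and -1.08. No member lies in that stretch; the 4 members on chromosome 6 are ORC3, MCM3, MCM9 and PRIM2.

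None of the 6 subunits of the MCM2-7 helicase was called at either harvest. Their log2 differences were -0.08 to 0.22 at the initial and -0.25 to 0.20 at the final harvest. MCM4 alone passed over both harvests (0.21, adjusted p 0.0249 in edgeR), with 332.4, 407.5 and 351.3 CPM in the initial and 400.3, 357.5 and 381.3 in the final wild type, and 394.3, 447.3 and 431.7 in the initial and 454.5, 405.2 and 444.7 in the final knock-out. Its groups overlapped at the initial harvest only, and the call was lost in 8 of the 12 fits with 1 library left out: without replicate 1 or 3 of the initial wild type, 2 or 3 of the final wild type, 2 or 3 of the initial knock-out, or 1 or 3 of the final knock-out (adjusted p up to 0.0784).

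The other 5 subunits passed in none of the genotype comparisons. MCM2 had 170.8, 228.7 and 181.8 CPM in the initial wild type, 197.9, 186.0 and 193.5 in the final wild type, 211.6, 247.6 and 212.0 in the initial knock-out, and 218.5, 180.6 and 232.1 in the final knock-out. MCM7 had 680.1, 848.3 and 671.4 CPM in the initial wild type, 720.1, 634.0 and 646.1 in the final wild type, 677.4, 730.8 and 677.0 in the initial knock-out, and 639.3, 574.5 and 672.7 in the final knock-out. In both genes replicate 2 was the highest of its group at the initial harvests and the lowest at the final ones, and the genotypes overlapped. MCM5 had 253.1, 350.6 and 271.6 CPM in the initial wild type, 339.7, 319.1 and 319.4 in the final wild type, 283.6, 318.5 and 292.6 in the initial knock-out, and 276.3, 247.4 and 299.5 in the final knock-out. Its final groups did not overlap, but the difference of -0.25 did not pass (adjusted p 0.141). MCM3 had 468.3, 560.8 and 466.1 CPM in the initial wild type, 494.5, 435.5 and 462.6 in the final wild type, 486.6, 532.0 and 500.4 in the initial knock-out, and 486.7, 442.2 and 490.9 in the final knock-out. MCM6 had 202.5, 258.2 and 224.4 CPM in the initial wild type, 245.9, 230.4 and 247.2 in the final wild type, 209.0, 236.5 and 228.6 in the initial knock-out, and 230.0, 205.0 and 238.3 in the final knock-out. Both overlapped between genotypes at each harvest, with differences between -0.10 and 0.03.

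CDC45 and the 4 GINS genes complete the active helicase, and none was called. GINS2 had the smallest p of this role over both harvests, with 46.2, 73.4 and 54.8 CPM in the initial wild type, 47.7, 55.6 and 60.3 in the final wild type, 63.4, 69.6 and 68.6 in the initial knock-out, and 64.7, 57.4 and 71.8 in the final knock-out. The genotypes overlapped at both harvests, and its differences of 0.21 and 0.25 had adjusted p of 0.319 and 0.251 in edgeR. GINS4 came nearest at the final harvest alone (0.23, adjusted p 0.057), while CDC45 stood at -0.02 and 0.00.

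Of the 12 polymerase and primase genes, POLD4 was called at the initial harvest and POLA2 and POLD4 over both harvests. POLD4 (ENSG00000175482.9, chromosome 11, 67350772 to 67356972, minus strand) is the small subunit of polymerase delta, a subunit known to be degraded after DNA damage. It had 4.27, 4.42 and 4.36 CPM in the initial and 4.80, 4.27 and 4.45 in the final wild type, and 3.30, 3.41 and 2.58 in the initial and 3.25, 3.8 and 3.67 in the final knock-out. The highest knock-out value was under the lowest wild-type value. The log2 difference was -0.49 (SE 0.131, adjusted p 0.0139 in edgeR) at the initial harvest, lost only without initial knock-out replicate 3 (adjusted p 0.0843). At the final harvest it was -0.34 (adjusted p 0.0855); 21.3% of its exon bases belong also to a gene without a symbol.

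POLA2 (ENSG00000014138.9, chromosome 11, 65261920 to 65305589, plus strand), the regulatory subunit of polymerase alpha, had 7.33, 9.46 and 6.58 CPM in the initial and 7.11, 6.65 and 6.96 in the final wild type, and 9.08, 9.57 and 9.57 in the initial and 8.45, 8.16 and 8.06 in the final knock-out. Only initial wild-type replicate 2 reached the knock-out's range. Over both harvests the difference was 0.26 (adjusted p 0.0278 in edgeR); it was lost without replicate 1 or 3 of the initial wild type, 2 or 3 of the final wild type, 2 or 3 of the initial knock-out, or replicate 1 of the final knock-out (adjusted p up to 0.086), and 36.1% of its exon bases are shared with other genes on the same strand. The remaining 10 genes of the role had differences between -0.15 and 0.25 at either harvest, and none passed. They include the catalytic subunits POLA1 (-0.11 and 0.00), POLD1 (0.25 and 0.07) and POLE (-0.09 and 0.11).

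The 4 Okazaki fragment genes were not called between genotypes. FEN1 had 139.1, 198.8 and 159.1 CPM in the initial wild type, 164.4, 160.9 and 163.3 in the final wild type, 180.3, 203.5 and 205.4 in the initial knock-out, and 177.1, 160.3 and 190.0 in the final knock-out, with overlap at both harvests. This flap nuclease stood at 0.25 and 0.11 (adjusted p 0.137 and 0.561 in edgeR), LIG1 at -0.22 and -0.00 (0.0579 and 0.998), the nuclease and helicase DNA2 at -0.21 and -0.03 (0.0983 and 0.838), and RNASEH2A, the catalytic subunit of the enzyme that removes ribonucleotides from DNA, at 0.21 and 0.14 (0.479 and 0.692).

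The clamp, the clamp loaders, RPA and the fork protection and chromatin assembly genes gave 1 call among 16, and that only over both harvests. DSCC1, a subunit of the alternative clamp loader that acts in sister chromatid cohesion, had 39.5, 45.8 and 43.4 CPM in the initial and 39.4, 45.5 and 47.3 in the final wild type, and 48.2, 51.9 and 54.6 in the initial and 55.5, 48.4 and 52.8 in the final knock-out. The 6 knock-out libraries all lay above the 6 wild-type libraries, and the difference over both harvests was 0.26 (adjusted p 0.00668 in edgeR), kept in all 12 fits. PCNA, the sliding clamp, had differences of 0.21 and -0.02, and RFC1 to RFC5 of -0.19 to 0.19. RPA1, which carries the main DNA-binding domains of RPA, had 213.9, 277.2 and 245.3 CPM in the initial wild type, 250.3, 242.4 and 254.3 in the final wild type, 256.3, 291.3 and 287.9 in the initial knock-out, and 274.5, 244.3 and 294.8 in the final knock-out. The genotypes overlapped at both harvests, and its differences of 0.18 and 0.12 did not pass. TIMELESS, TIPIN, CLSPN and WDHD1, which hold the fork together, stayed between -0.15 and 0.07. TIMELESS had 221.4, 237.1 and 200 CPM in the initial wild type, 190.9, 180.2 and 180.3 in the final wild type, 200.8, 201.9 and 190.9 in the initial knock-out, and 176.9, 181.9 and 183.7 in the final knock-out, with overlap at both harvests. CHAF1A, the large subunit of the histone chaperone CAF-1, had 96.1, 123.5 and 98.9 CPM in the initial wild type, 98.2, 98.3 and 96.5 in the final wild type, 112.7, 117.3 and 114.5 in the initial knock-out, and 110.2, 111.7 and 113.6 in the final knock-out. Its groups did not overlap at the final harvest, and its differences were 0.11 and 0.20 (adjusted p 0.407 and 0.14 in edgeR).

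The 4 members on chromosome 8 (MCM4, RECQL4, GINS4 and DSCC1) all had differences above 0 over both harvests, with a median of 0.23, and 3 of the 4 were called higher. Over the 629 tested genes of chromosome 8 the median was 0.01 and 17.2% were called higher. This grouping was made after the values were seen.

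Culture time changed fewer genes. In the wild type, 3 of 60 genes (5.00%) were called, all lower at the final harvest, where 6.47% of all tested genes were called. CDC7 had a log2 change of -0.37 (adjusted p 0.0131 in edgeR), LIG1 of -0.36 (adjusted p 0.0111) and TICRR of -0.29 (adjusted p 0.0311). LIG1 (ENSG00000105486.14, chromosome 19, 48115445 to 48170603, minus strand), the ligase that seals Okazaki fragments, had 117.0, 136.5 and 125.0 CPM in the initial and 106.7, 92.9 and 95.6 in the final wild type, without overlap, and 106.1, 111.9 and 106.4 in the initial and 97.6, 97.2 and 100.4 in the final knock-out. Its knock-out libraries were also lower at the final harvest, without overlap, but the change of -0.14 did not pass (adjusted p 0.45).

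The mitochondrial share of counts was higher in all final libraries (9.07% to 13.8%) than in all initial ones (6.46% to 8.58%), and its part in the time values was not tested. These 3 time calls depended on the fit. With the 6 wild-type libraries alone, none of the 60 was called, while 3.32% of all genes were. With all groups but without final wild-type replicate 2, none was called either, and the CDC7 and TICRR calls were also lost without initial wild-type replicate 1, LIG1 and TICRR without final wild-type replicate 3. The highest adjusted p in fits with 1 library left out was 0.0551 for CDC7, 0.089 for LIG1 and 0.168 for TICRR, whose call was also lost without initial wild-type replicate 2 or initial knock-out replicate 1 or 2.

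In the knock-out, none of the 60 genes was called between harvests in edgeR (2 had an unadjusted p under 0.05, against 14.9% of all genes, and DESeq2 called none, against 3.28%), where 1.48% of all genes were called. Nor was any called for a change of the genotype difference between harvests (2 had an unadjusted p under 0.05, against 12.3% of all genes, and DESeq2 called none, against 2.54%), where 1.28% of all genes were. For CDC7 and TICRR, called between genotypes at the final harvest and not at the initial one, that change was 0.28 and 0.23 with adjusted p of 0.331 and 0.416, so a difference between the harvests is not shown for either. Of the 60 log2 changes with time, 19 were above 0 in the knock-out and 18 in the wild type, against 50.9% and 51.1% of all genes. The member medians were -0.069 and -0.081, against 0.005 and 0.006 for all genes. With 1 library left out they ran from -0.100 to -0.028 in the knock-out and from -0.123 to -0.003 in the wild type. The member changes were not tested as a set.

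**Figure D3:**
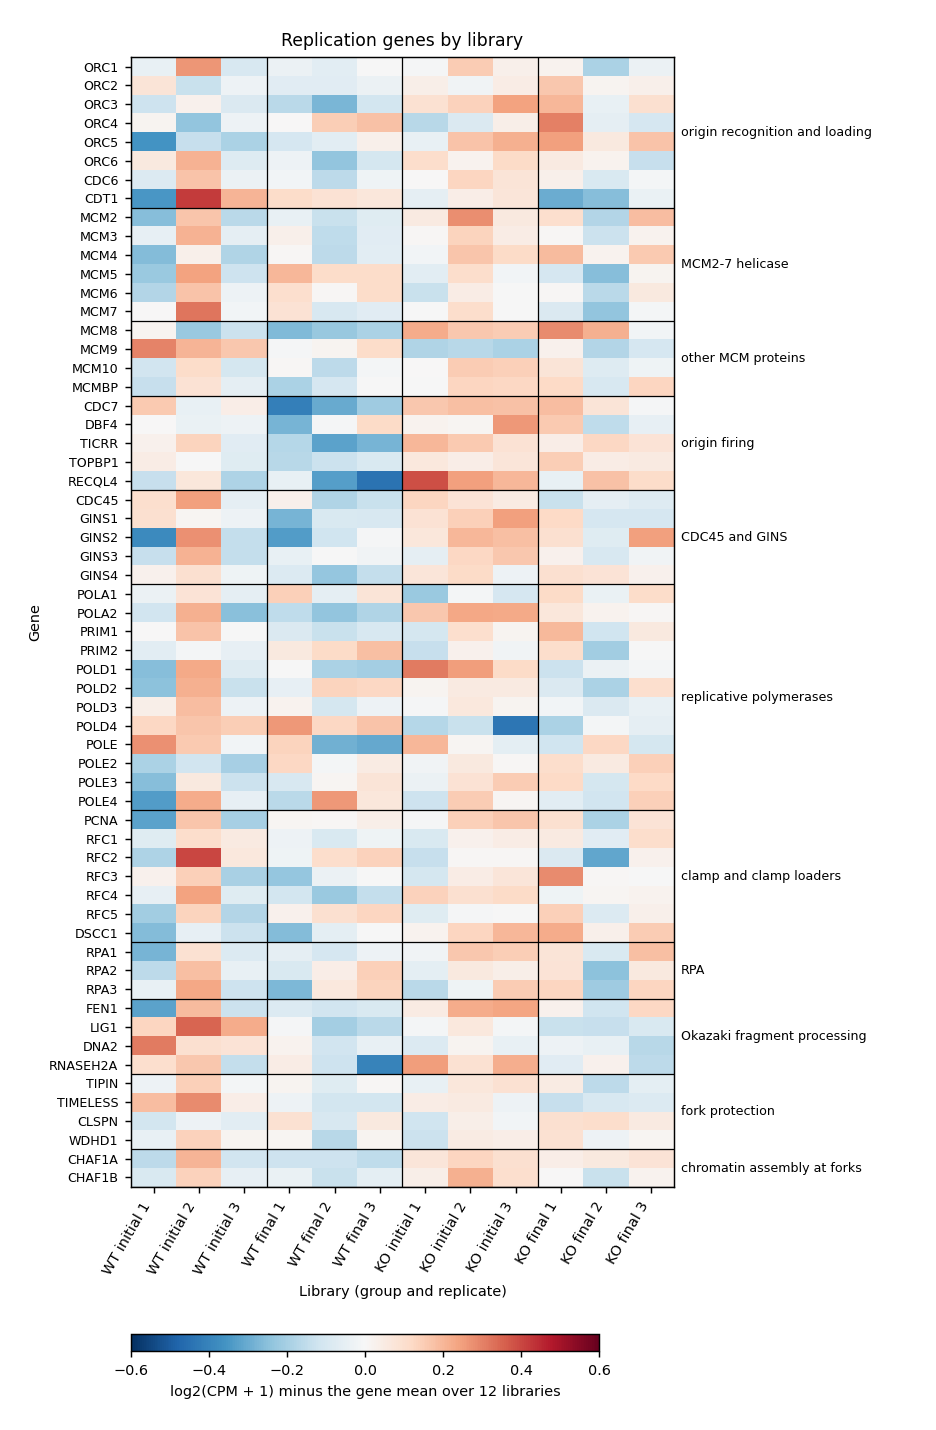
Level of each of the 60 genes (rows, by role) in each of the 12 libraries (columns, by group), as log2(CPM + 1) minus the gene's mean over all libraries; red is above and blue below the mean. The column of initial wild-type replicate 2 is red in most rows and holds the highest value of 23 of the 60 genes; the firing genes CDC7, TICRR and RECQL4 are blue in most final wild-type libraries.

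Libraries of the initial wild type stood apart in these genes. Over 17289 genes, replicates 1 and 2 of that group also differed most of all pairs within a group (chi-square per degree of freedom 58.6). How many of all tested genes had their highest or lowest value in each library was not counted. The counts below are therefore not shown to be particular to the 60. Initial wild-type replicate 2 held the highest of the 12 values for 23 of the 60 genes, and its median deviation from the gene means was 0.16 on the log2(CPM + 1) scale, against -0.07 and -0.06 in the other 2 libraries of its group. Its G2 and mitosis markers also stood at 0.13, against -0.12 and -0.03, and it had the lowest mitochondrial share of all libraries (6.46%); the part of these in the values was not tested. Replicate 1 of the same group held the lowest value of 15 genes. Final wild-type replicate 2 held that of 13 genes, and its median deviation of -0.10 was the lowest of the 12 libraries. Without initial wild-type replicate 2, the 11 genes added to the initial genotype calls were MCM2, MCM4, ORC3, GINS2, POLA2, POLD1, PCNA, DSCC1, RPA1, FEN1 and CHAF1A, at log2 differences of 0.23 to 0.43, and MCM8 was lost. Over both harvests 19 were then called, 17 higher and 2 lower, where 32.2% of all genes were. Without initial wild-type replicate 1, 12 were called over both harvests, 8 higher and 4 lower.

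The origin firing genes did not stand high in initial wild-type replicate 2. Their median deviation was -0.17, -0.30 and -0.21 in the 3 final wild-type libraries, between -0.07 and 0.03 in the initial wild type, and 0.05 to 0.18 in the 6 knock-out libraries, with no overlap between genotypes. Such a separation was not particular to them. The medians of the 20 p53 targets were at most -0.01 in the wild type and at least 0.10 in the knock-out. Those of the 6 tested epithelial markers were at least 0.09 in the wild type and at most -0.13 in the knock-out. The medians of the MCM2-7 genes ran from -0.20 to 0.19 in the initial wild type alone, and those of the 20 G2 and mitosis markers from -0.15 to 0.15 over the 12 libraries. Of those 20 markers, 1 was called higher and none lower at the initial harvest and none at the final harvest in edgeR (2 had an unadjusted p under 0.05).

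**Figure D4:**
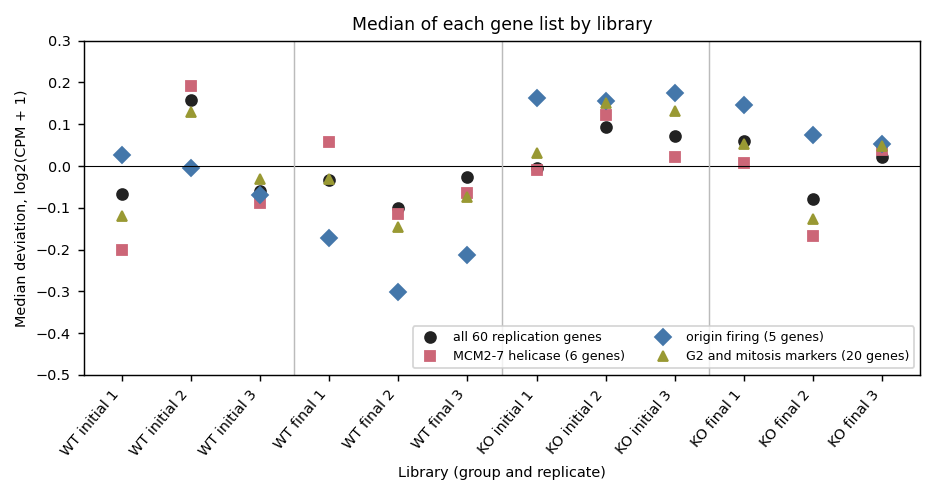
Median deviation from the gene means, in log2(CPM + 1) (y axis), of 4 gene lists in each of the 12 libraries (x axis); each symbol is 1 list in 1 library. The origin firing genes (blue diamonds) lie between -0.30 and -0.17 in the final wild type and between 0.05 and 0.18 in the knock-out, while the MCM2-7 genes (red squares) follow single libraries, such as initial wild-type replicate 2 at 0.19.

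Of 39 other replication genes outside the 60, 4 were called at each harvest (10.3%), 3 higher and 1 lower at the initial and 2 higher and 2 lower at the final harvest. Of all tested genes, 8.55% were called higher and 11.3% lower at the initial harvest, and 8.38% and 10.2% at the final harvest. Of 25 tested genes of the E2F and RB family, which control many of the 60, 4 were called at the initial harvest, 2 in each direction, and 8 at the final harvest, 3 higher and 5 lower. E2F3, an activator of S-phase genes that lies in the same stretch of chromosome 6 as GMNN, had 80.4, 74.3 and 77.6 CPM in the initial and 80.1, 77.0 and 78.2 in the final wild type, and 46.9, 47.9 and 47.9 in the initial and 53.5, 49.8 and 45.9 in the final knock-out; its difference over both harvests was -0.68 (adjusted p 4.67e-08 in edgeR). Of 20 p53 target genes, which mark a damage response, 9 were called higher and 1 lower at the initial harvest and 6 higher and 2 lower at the final one, read against the same shares.

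Levels per length set the members apart by 2 orders of magnitude. On the RPKM scale (counts scaled for exon length and library size, mean over 12 libraries), PCNA stood highest at 198.5, followed by MCM7 at 155.3 and MCM3 at 133.2, and then by FEN1 at 79.7 and RECQL4 at 71.3. The lowest were POLA2 at 1.45, POLD4 at 1.27 and RNASEH2A at 0.828. The low values of RNASEH2A and POLA2 go with a large share of exon bases that also belong to other genes, 53.3% and 36.1% on the same strand, and the same holds for MCM8 at 33.3% and POLD4 at 21.3%. Of the 3 remaining genes in the lowest 6, MCM8 stood at 2.86, POLE4 at 2.42 and MCM9 at 1.69, and the rank of MCM8 carries the doubt about shared exon bases. POLE4 and MCM9 share 0% on the same strand. TIPIN, sharing 21.1%, stood at 8.89, and PRIM1, sharing 17.55%, at 12.55. The part of shared bases in these levels was not tested.

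Promoter sequence was compared because E2F proteins are known regulators of these genes. Of the 60 genes, 51 had a RefSeq promoter window (GRCh38.p14, 250 bases before to 50 after the gene start). An E2F-type octamer (TTTCCCGC, TTTCGCGC, TTTGCCGC or TTTGGCGC on either strand, counted once per gene, in any of its windows where RefSeq gives several starts) was found in 24 of the 51 (47.1%), against 6.30% of 12084 tested genes with a window and 3.99% of all 27305 genes in the table. The pentamer CCAAT on either strand was found in 30 of 51 (58.8%), against 42.4% and 39.7%. A match of letters is a description and not a bound site. Among the 24 genes with an E2F-type match, 1 was called initially and 4 at the final harvest, with median log2 differences of 0.07 and 0.06. Among the 27 without, 3 and 1 were called, with medians of 0.05 and 0.05. Of all tested genes 19.9% and 18.5% were called, and the genes with and without a match were not compared by a test.

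Stretches upstream of a RefSeq gene start, free of the exons of the deposited table, are shown for 5 genes: CDC7 and POLA2, which were called over both harvests, and MCM6, PCNA and CDT1, which were not, since all 5 hold the same kind of letters. Each reads 5′ to 3′ on the strand of its gene, and capitals mark the E2F-type octamers, which overlap in MCM6. The coordinates on GRCh38.p14 are chr1:91501018-91501107 (plus strand) for CDC7, chr11:65261849-65261919 (plus) for POLA2, chr2:135876462-135876589 (minus) for MCM6, chr20:5126627-5126741 (minus) for PCNA and chr16:88803694-88803788 (plus) for CDT1. RefSeq gives 2 windows for CDC7; the stretch shown lies before the start of the second and so inside the gene as the deposited table places it, while the other 4 stretches lie outside theirs.
CDC7: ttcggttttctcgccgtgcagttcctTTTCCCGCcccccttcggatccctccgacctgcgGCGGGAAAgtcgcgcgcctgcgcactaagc
POLA2: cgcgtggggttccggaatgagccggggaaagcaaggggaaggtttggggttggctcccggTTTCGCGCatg
MCM6: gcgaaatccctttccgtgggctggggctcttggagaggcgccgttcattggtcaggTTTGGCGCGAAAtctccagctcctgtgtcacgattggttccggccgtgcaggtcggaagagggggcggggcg
PCNA: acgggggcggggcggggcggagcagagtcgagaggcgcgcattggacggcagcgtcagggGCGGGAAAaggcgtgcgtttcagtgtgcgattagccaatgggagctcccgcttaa
CDT1: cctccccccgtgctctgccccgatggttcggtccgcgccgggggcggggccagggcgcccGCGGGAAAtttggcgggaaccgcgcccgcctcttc
CDC7 and MCM6 hold 2 octamers each in these stretches, and POLA2, PCNA and CDT1 hold 1.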

How the data were processed

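The authors deposited 1 table of raw counts per gene, laid out as featureCounts writes it per the file headers, with 12 library columns. STAR, featureCounts and Subread and the build hg38 are named in the submitters' processing notes; versions, annotation release, strand setting and treatment of multi-mapping reads are not given in the sources used here. Of the 60653 rows, 5 broken lines were left out, and symbols were found for 60506 of 60648 genes. The 37318 identifiers that occur with the same version in GENCODE 29 have identical coordinates on GRCh38.

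The filter on low counts was filterByExpr by group. In R 4.3.3, edgeR 4.0.16 and its base limma 3.58.1 took the counts with TMM factors into 1 robust quasi-likelihood model of the 12 libraries and 4 group means. All 18289 genes entered the Benjamini-Hochberg adjustment in each of 6 comparisons: genotype at each harvest, time in each genotype, their average and their interaction. The comparisons at the 2 harvests share no library, while the average and the interaction use all 12. CPM values are TMM-scaled, log2 levels have a pseudocount of 1, and RPKM uses the deposited gene lengths. Replicates differed beyond sampling noise (chi-square per degree of freedom 4.86 to 58.6), and each was counted as 1 sample. That spread does not show that they are independent, since what separates them is not given. On simulated data 14%, 64%, 78% and 98% of genes changed 1.25-, 1.5-, 2- and 3-fold were recovered in the initial genotype comparison (18289 genes, 50 changed per size), and 7.97% of the genes called were false.

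The members, role groups, other lists and tests were chosen with earlier results of these data known. Genes with values in every library are the up to 4 called in each direction with the smallest adjusted p in each comparison, the gene with the smallest p of each role group over both harvests, and MCM2-7; POLA2, TOPBP1, DBF4, the ratio of MCM8 to MCM9 and the chromosome 8 grouping fall outside this rule and were chosen after their values were seen. Alternatives were DESeq2 1.42.0, other size factors and filters, only the groups compared, a replicate block, a test against a 1.2-fold change and leaving out each library. Added after seeing the data were leaving out 2 libraries together (initial wild-type replicate 2 and final wild-type replicate 1) and the replicate block with only the groups compared.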

Additional observations from a re-analysis of the deposited data

How the results depend on the processing

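The balance of directions among the called genes did not hold in all alternatives at the initial harvest. The count of called genes among the 60 also varied. For the genotype difference at the initial harvest (5 called) it was 8 with only the groups compared and a replicate block, 0 in the test against a 1.2-fold change, and 2 to 15 with 1 library left out; the highest count came without initial wild-type replicate 2, and the counts of 2 or 3 without initial wild-type replicate 3 or any initial knock-out replicate. At the final harvest (6 called) it was 3 with only the groups compared and a replicate block, 0 in the 1.2-fold test and 3 to 9 with 1 library left out. For time in the wild type (3 called) it was 0 with only the groups compared, 0 when a replicate block was added to that, 0 in the 1.2-fold test and 0 to 5 with 1 library left out. For time in the knock-out (0 called) it was 1 with only the groups compared. Over both harvests (12 called) it was 0 in the 1.2-fold test and 9 to 19 with 1 library left out. Leaving out both initial wild-type replicate 2 and final wild-type replicate 1 gave 18 called at the initial harvest, 20 over both, 1 for time in the knock-out, and 6 for time in the wild type (2 higher and 4 lower), and moved the median log2 change of the 60 with time in the wild type from -0.081 to 0.0088; with 1 library left out that median was -0.123 to -0.003. The cause of these shifts was not tested.

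The replicate numbers were not shown to pair the libraries. The correlation of deviations between libraries of the same number ran from -0.53 to 0.45 (median 0.06) and was over 0.1 in 8 of 18 pairs. Between libraries of other numbers it ran from -0.68 to 0.64 (median -0.04) and was over 0.1 in 13 of 36 pairs. With 3 libraries a group, these correlations do not decide whether the libraries are paired. With a replicate block, 5, 5, 3, 0, 11 and 0 of the 60 were called for genotype at the initial and final harvest, time in the wild type and the knock-out, the average and the interaction. DESeq2 called 7, 7, 4, 0, 12 and 0. Of 162 single values of named genes, 39 passed the threshold, and 13 of these were lost in at least 1 of the alternatives other than the 1.2-fold test; of the 123 that did not pass, 22 passed in at least 1 alternative. No called value changed its sign. In simulated data, the smallest changes tried were recovered for 14% of genes. There 50 of 18289 genes were changed per size, while 3635 were called in the real initial genotype comparison. That share therefore cannot be carried over to the 60. How often differences of that size among the 60 went undetected with 3 libraries a group was not tested.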
